A study of Rattus norvegicus with 4 samples.

Results

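miR-210 is a single microRNA hairpin, rno-mir-210, and its members here were all read sequences (tags) that the deposited tag files place on that hairpin. They were 1 of 262 named rat hairpins with counts (genomic copies merged) and made up 1 of 1258 tag entries in the first Exo-AT library (replicate 1), 4 of 4519 in Exo-AT replicate 2 and 12 of 5517 in the Exo-ADSCs library (replicate 2). Together these held 14 distinct sequences. The series profiled small RNA in exosomes, the small vesicles that cells release, from Sprague-Dawley rats. Exo-AT came from minced adipose tissue of animals aged 4 weeks, whose explants were stirred in a spinner flask of alpha-MEM with antibiotics for 3 days. Exo-ADSCs came from adipose stem cells at passage 3, which stood for the same time in that medium without serum. An explant holds the mixed cell types of the tissue, so the groups differ in cell makeup as well as in culture. An oxygen level is not given in the sources used here for either culture.

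miR-210 is best known as the microRNA that cells make when oxygen is short. In human and mouse cells its gene is switched on by hypoxia-inducible factor (HIF), and the mature strand, miR-210-3p, pairs through its seed with messenger RNAs that include the iron-sulfur scaffold ISCU, by which it lowers mitochondrial respiration, and the ephrin EFNA3, by which it promotes vessel growth. The second strand, miR-210-5p, is usually degraded when the mature strand is loaded into Argonaute. Vesicles of mesenchymal stem cells, those of adipose tissue included, have been studied as carriers of miR-210 to endothelium.

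The mature strand and the 4 read forms on which the results turn are shown with their seed, bases 2 to 8 of the mature strand, in capitals. The mature sequence is from RefSeq on the GRCr8 assembly (chr1:205755946-205755967, minus strand), and the read forms are from the deposited tag files.
miR-210-3p, annotated mature strand: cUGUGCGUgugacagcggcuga
17 nt form, the most counted form in Exo-ADSCs: cTGTGCGTgtgacagcg
20 nt form, the most counted form in Exo-AT replicate 2: cTGTGCGTgtgacagcggct
22 nt form, the annotated strand itself: cTGTGCGTgtgacagcggctga
23 nt form, the only form in Exo-AT replicate 1: cTGTGCGTgtgacagcggctgaa
The 23 nt form ends in an A where the hairpin has a T (T23A, counted from base 1 of the tag), so it is the 22 nt strand with 1 added A. The seed UGUGCGU was shared with 0 other mature sequences among the 724 of the RefSeq rat table, so miR-210 stood alone as a seed family there. The whole hairpin (110 nt, chr1:205755923-205756032 in GRCr8, minus strand) is printed below with both annotated strands in capitals, miR-210-5p first, to show how much sequence follows the reads. It was identical to the hairpin in the tag files.
rno-mir-210: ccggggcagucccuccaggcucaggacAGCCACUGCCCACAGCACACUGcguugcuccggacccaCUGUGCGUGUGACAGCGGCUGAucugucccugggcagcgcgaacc

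Counts per tag were used for 3 of the 4 libraries. The counts assigned to hairpins summed to 15200 and 181049 in Exo-AT replicates 1 and 2, against 715114 in the Exo-ADSCs library, and of these 9134, 136024 and 97204 lay on named miRNAs. Hairpins that the authors predicted took 39.9%, 24.9% and 86.4% of these counts, so a level depends on whether the named or the assigned total is the denominator. Both are given for miR-210-3p. The Exo-ADSCs group entered with 1 library, and 1 sample name stands inside the files of both Exo-AT libraries. The labels do not say whether replicates were separate animals or cultures. A p-value here therefore measures no more than how far these samples differ among themselves, and that spread may be technical. The test also pools this spread over all miRNAs, so a very small p-value rests on the pooling and not on the spread of miR-210-3p alone. Intervals and floors below are for counting error alone.

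The marker miRNAs of the labelled sources were present. Their levels are given per named counts only. On all assigned counts the order of the groups can differ, and it was not computed for the markers. All 5 adipose stromal hairpins had counts in every library, summing to 65908 and 49432 CPM (counts out of every 1000000 on named miRNAs) in Exo-AT against 152103 CPM in Exo-ADSCs, and all 4 adipocyte hairpins summed to 213926 and 147849 CPM against 163090 CPM. Single strands carried most of the sums in Exo-ADSCs. miR-100-5p had 9989 of 14785 stromal counts (4.06% of them at 20 to 25 nt), and miR-143-3p had 15143 of 15853 adipocyte counts. Of the stromal strands, miR-214-3p (log2 fold change -4.06), miR-22-3p (-3.68), miR-100-5p (-3.13), miR-21-3p (-9.61, 0 counts in Exo-AT) and miR-21-5p (-0.97) were called lower in Exo-AT. The stromal miR-199a-3p (-0.43) and miR-199a-5p (0.88) were not called. The adipocyte members did not go one way: miR-30a-5p was higher in Exo-AT (log2 fold change 2.17), and miR-143-3p (-0.87), miR-378a-3p (-1.59) and miR-103-3p (-2.35) were lower. The endothelial miR-126a was at 3832 and 5102 CPM in Exo-AT against 329 CPM in Exo-ADSCs. Of 3 erythroid hairpins, 2 and 3 were detected in Exo-AT (51018 and 166978 CPM, miR-144 at 0 in replicate 1) and 3 in Exo-ADSCs (33527 CPM). Of 3 leukocyte hairpins, 2 and 3 were detected in Exo-AT (438 and 941 CPM, miR-223 at 0 in replicate 1) and 1 in Exo-ADSCs (154 CPM, miR-150 and miR-223 at 0). Of 3 epithelial hairpins, 2 and 3 were detected in Exo-AT (876 and 581 CPM, miR-200c at 0 in replicate 1) and 1 in Exo-ADSCs (2027 CPM, miR-200c and miR-205 at 0). That Exo-ADSCs value was mostly short reads of 1 strand. miR-203a-3p had 191 of the 197 epithelial counts there, with 2.09% of its counts at 20 to 25 nt. Of 3 muscle hairpins, 0 and 2 were detected in Exo-AT (0 and 169 CPM) and 2 in Exo-ADSCs (175 CPM), with the hairpin listed as mir-1 at 0 in each library. Its close relative miR-1b-3p, outside that list and looked up after its values were seen, had 18 and 177 counts in Exo-AT, against 3 in Exo-ADSCs (log2 fold change 4.74, SE 0.96, adjusted p = 1.02e-05, edgeR). In bulk vesicle RNA, fewer vesicles from a cell type and less miRNA per vesicle cannot be told apart, and the part of these cell types in the miR-210 result was not tested.

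miR-210-3p was far lower in Exo-AT than in Exo-ADSCs. The Exo-AT libraries gave 3 counts of it (replicate 1) and 47 counts (replicate 2), and the Exo-ADSCs library gave 512. As a level this was 328 CPM (exact 95% Poisson interval 67.7 to 960) and 346 CPM (254 to 459) in the Exo-AT libraries, against 5267 CPM (4821 to 5744) in Exo-ADSCs. Both Exo-AT libraries lay below Exo-ADSCs with no overlap of the intervals, and the intervals of the Exo-AT libraries overlapped each other. In the order of levels, Exo-ADSCs thus stood first, and the Exo-AT libraries did not differ beyond their counting error. Exo-AT replicate 1 rests on 3 reads of 1 tag: the ratio of the Exo-ADSCs level to the level in that library was 16.04 (counting interval 5.46 to 78.0), and to the level in Exo-AT replicate 2 it was 15.2 (11.3 to 21.02).

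On the scale adjusted for library composition (TMM), the Exo-AT libraries had a mean miR-210-3p level of 278 ± 58.4 CPM (SD, n = 2), and the Exo-ADSCs library had 7979 CPM. Its log2 fold change, Exo-AT over Exo-ADSCs, was -4.72 (SE 0.44, adjusted p = 5.09e-20, edgeR's quasi-likelihood test, Benjamini-Hochberg over the 183 miRNAs tested). The same test called 35 miRNAs higher and 35 lower, 19.1% in each direction and 38.3% in all. Both Exo-AT libraries lay below Exo-ADSCs for 37.7% of the miRNAs tested, so a lack of overlap was common. By fitted value, 15 of the 183 had a lower log2 fold change, and 11 of those were called. With the 42 miRNAs that had 0 counts in a whole group set at their bound (3 counts over the group), 7 lay lower. The median over all 183 was 0.37 either way, and miR-210-3p minus that median was -5.10. Scaling by total counts gave 46 miRNAs higher (25.1%) and 19 lower (10.4%) and moved the median to 1.21. miR-210-3p was then at -3.94, and its difference to the median was -5.15.

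miR-210-3p held a prominent place in the Exo-ADSCs library and a modest one in Exo-AT. Its rank was 103 of 140 counted miRNAs in Exo-AT replicate 1, tied with 11 others, and 98 of 244 in Exo-AT replicate 2, tied with 2 others. In the Exo-ADSCs library it was 12 of 264. Its neighbours in Exo-AT replicate 1 were miR-708-5p and miR-7a-5p with 4 counts each above it and miR-107-3p and miR-1247-5p with 2 counts each below it. In Exo-AT replicate 2 they were miR-335-3p (50 counts) and miR-151-5p (48) above and miR-205-5p (46) and miR-141-3p (45) below, differences of a few counts that are within counting error. In Exo-ADSCs replicate 2 it stood between miR-24-3p (1250 counts) and let-7f-5p (667) above and miR-181a-5p (422) and let-7i-5p (416) below.

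The denominator set the size of the difference. As CPM of the counts on all hairpins, predicted ones included, miR-210-3p was at 197 CPM (40.7 to 577) and 260 CPM (191 to 345) in Exo-AT, against 716 CPM (655 to 781) in Exo-ADSCs. Exo-ADSCs was then 3.63 times Exo-AT replicate 1 (1.23 to 17.6) and 2.76 times Exo-AT replicate 2 (2.04 to 3.802). Exo-AT stayed lower on this scale, with a log2 fold change of -1.56 (SE 0.58, adjusted p = 0.0126, edgeR). That fit called 66.3% of its 169 miRNAs, 107 higher and 5 lower. The median of all miRNAs tested was then 3.88, and miR-210-3p minus that median was -5.44.

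**Figure D1:**
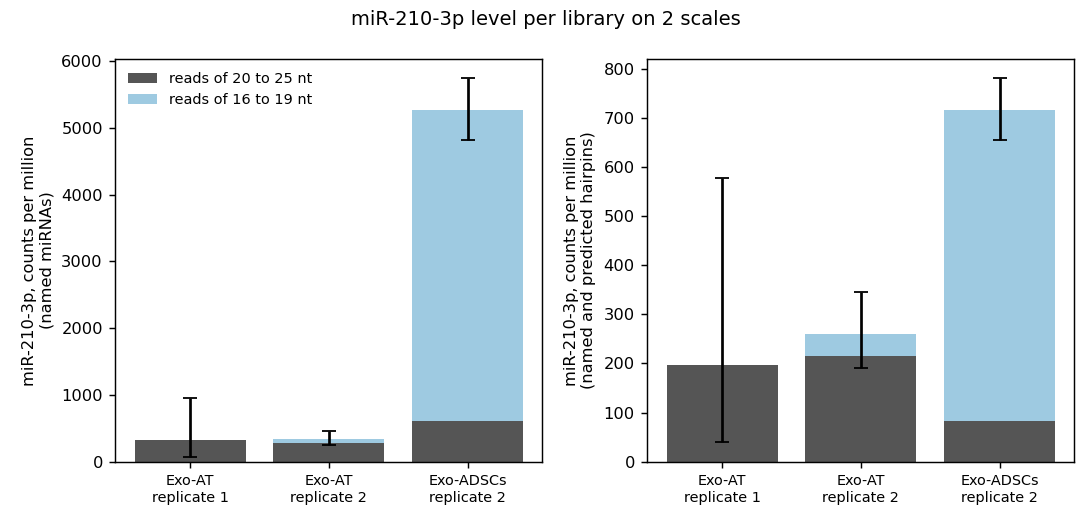
Level of miR-210-3p in each library, as CPM of named counts (left) and as CPM of counts on named and predicted hairpins (right). Bars are split into reads of 20 to 25 nt (dark) and of 16 to 19 nt (light), and whiskers are exact 95% Poisson intervals of the whole bar. Both Exo-AT libraries lie below Exo-ADSCs on both scales (328 and 346 against 5267 CPM on the left), but the dark part is higher in Exo-AT on the right.

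No read came from the other strand. miR-210-5p had 0 counts in each of the 3 libraries. The limit that such a zero sets, 3 counts, was 6.38% of the hairpin's total in Exo-AT replicate 2 and 0.586% in Exo-ADSCs. Exo-AT replicate 1 gives no limit, since the mature strand itself had 3 counts there. The 5' end of the mature strand, which sets the seed, was nearly invariant. All 3 and all 47 counts in Exo-AT began at the annotated first base, as did 504 of 512 in Exo-ADSCs (98.4%, Wilson 95% interval 96.9 to 99.2). The other 8 counts were 1 tag that began 2 bases earlier on the hairpin and carried an inserted T.

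The 3' end differed between the libraries. In Exo-AT replicate 1 all 3 counts were of the 23 nt form. In Exo-AT replicate 2 the 47 counts ended at 3 places: 27 at base 20 (57.4%, Wilson 95% interval 43.3 to 70.5), 12 at base 23 (25.5%, 15.3 to 39.5) and 8 at base 17 (17.02%, 8.89 to 30.1). In Exo-ADSCs replicate 2, 377 of 512 counts ended at base 17 (73.6%, 69.7 to 77.3), 5 bases short of the annotated end. The remaining Exo-ADSCs counts were spread over base 16 (19), base 18 (35), base 19 (30), base 20 (7), base 21 (4) and base 22 (40). The profile in Exo-ADSCs thus had a high peak at base 17 and a low one at the annotated end, base 22, where 7.81% of counts stopped. The mean read length was 23 and 20.3 nt in the Exo-AT libraries, against 17.7 nt in Exo-ADSCs. Over all named counts it was 20.8 and 21.2 nt in Exo-AT, against 19.8 nt in Exo-ADSCs. Reads of 20 to 25 nt made up 80.8% and 84.5% of all named counts in Exo-AT, against 44.7% in Exo-ADSCs. Reads were thus shorter in that library as a whole, not in miR-210-3p alone.

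**Figure D2:**
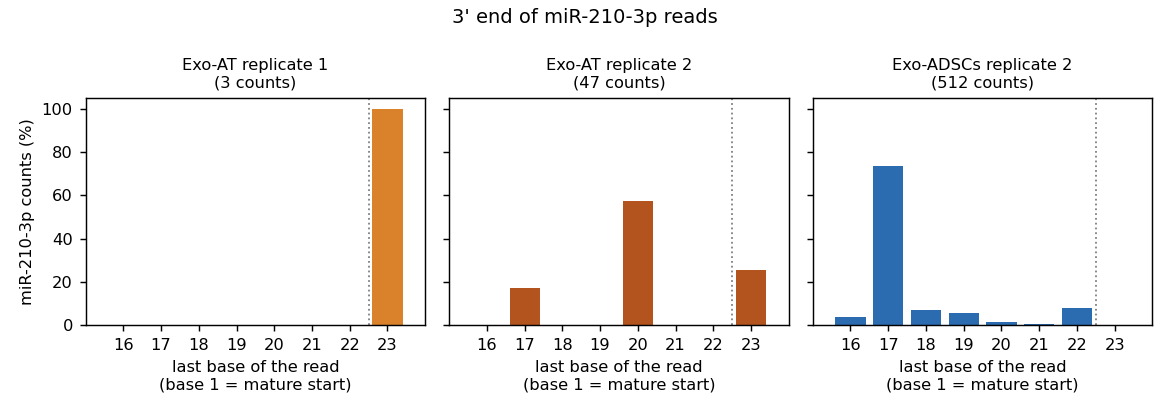
Share of miR-210-3p counts by the last base of the read, counted from the first base of the mature strand, in the 3 libraries. The dotted line marks the end of the annotated strand after base 22. Reads of Exo-AT replicate 2 peak at base 20 (57.4%) and reads of Exo-ADSCs replicate 2 at base 17 (73.6%), and Exo-AT replicate 1 has only 3 counts.

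The forms did not all differ in the same direction. The 17 nt form had 0 and 8 counts in Exo-AT, against 372 in Exo-ADSCs. Its level was 58.8 CPM in the second Exo-AT library, against 3827 CPM in Exo-ADSCs, which is 65.1 times as much in Exo-ADSCs (counting interval 32.7 to 152), and on the scale of all assigned counts 11.8 times as much (5.91 to 27.5). The 22 nt form, the annotated strand, had 0 and 0 counts in Exo-AT, against 36 in Exo-ADSCs (370 CPM, where 3 counts are 328 CPM in Exo-AT replicate 1 and 22.1 CPM in Exo-AT replicate 2). The 20 nt form went the other way between the deeper libraries, with 24 counts (176 CPM) in the second Exo-AT library, against 7 counts (72.0 CPM) in Exo-ADSCs, a ratio of 2.45 (1.02 to 6.73), or 13.5 (5.66 to 37.2) on the scale of all assigned counts. It had 0 counts in Exo-AT replicate 1. The 23 nt form with its added A had 3 and 12 counts in Exo-AT, against 0 in Exo-ADSCs. These values of single forms are given with counting intervals only, which compare libraries, not conditions. Tags below 2 reads are not in the files, so forms with few reads are lost first where depth is lowest, in Exo-AT replicate 1.

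Taken by size, the excess in Exo-ADSCs was mostly short reads. Reads of 16 to 19 nt gave 0 and 8 counts in Exo-AT, against 453 in Exo-ADSCs, 88.5% of its miR-210-3p. Reads of 20 to 25 nt gave 3 and 39 counts in Exo-AT, against 59 in Exo-ADSCs, 8 of which were the tag with the early start. As CPM of all named counts these were 328 and 287 CPM in Exo-AT, against 607 CPM in Exo-ADSCs, so Exo-ADSCs was 1.85 times Exo-AT replicate 1 (0.602 to 9.22) and 2.12 times Exo-AT replicate 2 (1.39 to 3.26). As CPM of the counts on all hairpins the order turned round, with 197 and 215 CPM in Exo-AT against 82.5 CPM in Exo-ADSCs. On that scale Exo-AT replicate 2 was 2.61 times Exo-ADSCs (1.70 to 3.98), and the ratio of Exo-AT replicate 1 to Exo-ADSCs, 2.39 (0.480 to 7.34), was within counting error. When the whole table was restricted to tags of 20 to 25 nt, miR-210-3p was at 279 and 334 TMM-scaled CPM in Exo-AT, against 2038 in Exo-ADSCs, and its log2 fold change was -2.68 (SE 0.83, adjusted p = 0.0372, edgeR). In that fit 45.4% of 130 miRNAs were called, and 22.3% were called lower. With total counts of those tags in place of TMM it was -1.92 (SE 0.70, adjusted p = 0.0672, edgeR), and with all assigned counts as library size it was 1.34 (SE 0.54, adjusted p = 0.0992, edgeR), neither of them called.

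**Figure D3:**
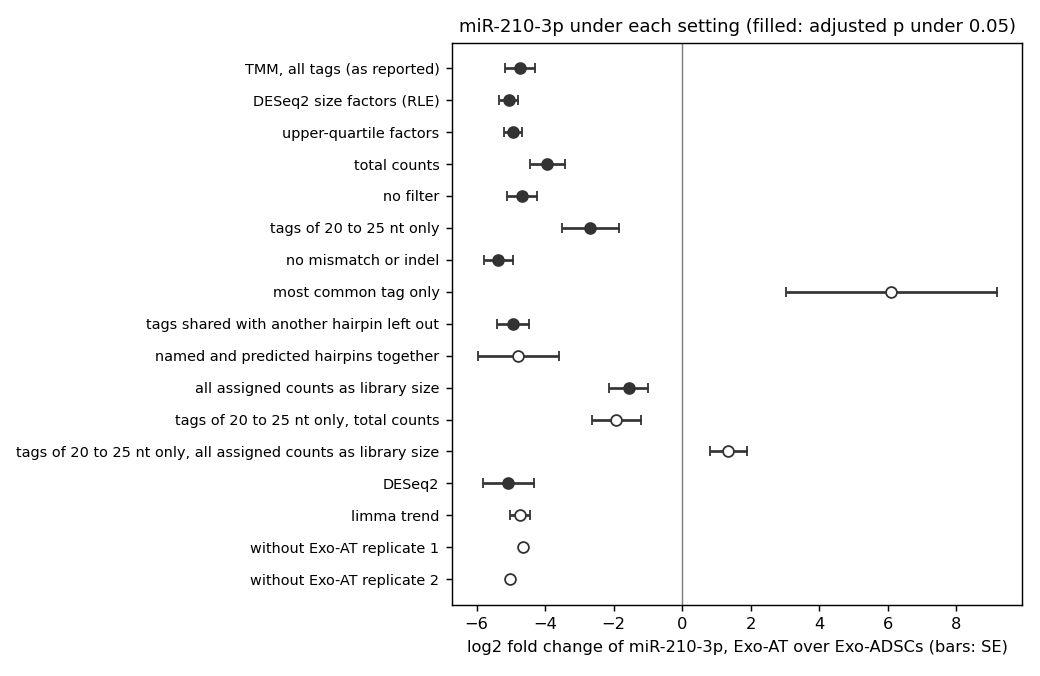
log2 fold change of miR-210-3p, Exo-AT over Exo-ADSCs, under the reported fit (top) and each other setting, with bars of 1 SE and filled points where the adjusted p was under 0.05. The 2 settings that leave out an Exo-AT library have no test and no bar. Points lie left of 0 except for the most common tag alone (6.10) and for tags of 20 to 25 nt scaled to all assigned counts (1.34), neither of them called.

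Apart from those 2 settings, miR-210-3p was lower in Exo-AT throughout, though not always called. It was called with DESeq2 size factors (-5.06, where 29.0% of miRNAs were called), upper-quartile factors (-4.94, 25.1%), total counts (35.5% called in all) and no filter (-4.67, 15.8%). It was also called with tags free of mismatches and indels (-5.36, 44.2%), without tags shared between miRNAs (-4.94, 38.8%) and with DESeq2 itself (-5.08, 23.5%). It was not called with limma (-4.73, adjusted p = 0.0543, 10.9% called) or with predicted hairpins in the fit (-4.79, adjusted p = 0.511, edgeR, 0.0% called). The most common tag alone, chosen by its share summed over the libraries, was not called either (48.8% of miRNAs were). That rule picked the 23 nt form, which was all 3 counts of Exo-AT replicate 1. By counts the 17 nt form was the most common, with 372 in Exo-ADSCs.

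Short reads were common in the Exo-ADSCs library, and miR-210-3p had one of the highest shares of 17 nt reads. Of the 89 miRNAs that reached 20 counts in Exo-ADSCs replicate 2, 87 had a smaller share of 17 nt reads than miR-210-3p and 1 had a larger one, let-7a-3p, and the median share was 0. Over all named counts of that library the share of 17 nt reads was 10.8%. By the share of reads of 20 to 25 nt miR-210-3p was less extreme there. Of the 89 miRNAs, 19 had a smaller share than its 11.5% and 69 a larger one. In Exo-AT replicate 2, 120 of 128 miRNAs had a smaller share than the 17.02% of miR-210-3p and 7 a larger one, and the share over all named counts was 3.47%. miR-210-3p was thus among the miRNAs richest in 17 nt reads in both deeper libraries. Within the hairpins of the files, 783 distinct sequences, the 17 nt form was found in 1, and among the 419 rat hairpins of the RefSeq table also in 1, the miR-210 hairpin each time. All 17 miR-210 tag entries carry the alignment flag R, which the files also give to tags listed on several hairpins, yet none of them is listed on a second hairpin and their counts were not divided. What the flag marks in such cases is not given in the sources used here, and a match elsewhere in the genome was not tested.

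**Figure D4:**
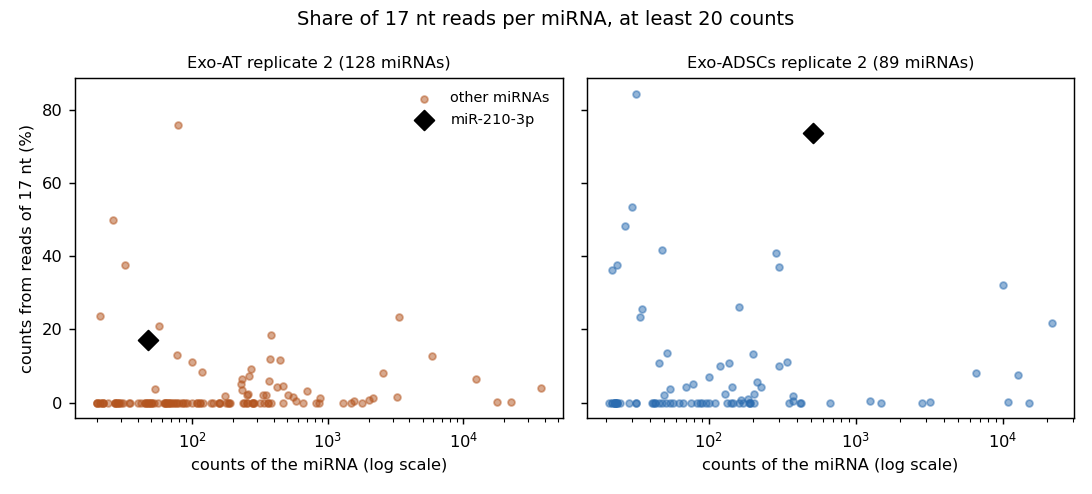
Share of each miRNA's counts that came from 17 nt reads against its counts (log axis), for miRNAs with at least 20 counts in Exo-AT replicate 2 (left, 128 miRNAs) and Exo-ADSCs replicate 2 (right, 89 miRNAs). miR-210-3p (black diamond) is at 17.02% on the left and 73.6% on the right, where 1 miRNA lies above it.

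The form with the added A was counted in Exo-AT and not in Exo-ADSCs. In the Exo-AT libraries, all 3 counts of replicate 1 and 25.5% of those of replicate 2 ended in this untemplated A, against 0 of 512 in Exo-ADSCs, where 3 counts would be 0.586% and the Wilson upper limit is 0.745%. Of the 40 Exo-ADSCs counts that reached base 22, 0 went past it. In Exo-AT replicate 2, 125 of 128 miRNAs with at least 20 counts had a smaller share of reads with a mismatched A as last base, and 2 had a larger one, miR-122-5p (46.0%) and miR-486-5p (29.3%). Such reads made up 2.99% and 6.02% of all named counts in Exo-AT, against 0.431% in Exo-ADSCs, so the pooled counts differed in the same direction. The abundant miR-486-5p weighs on these sums. It had 464 and 22521 counts in Exo-AT, 36.2% and 29.3% of them with such an end, against 3200 counts and 3.03% in Exo-ADSCs. Over the miRNAs with at least 20 counts the median share was 0 in each library. Other changes were rare. In Exo-AT replicate 2, 3 counts carried C1A, and in Exo-ADSCs 5 counts carried G11T, 2 carried A22T and 2 carried G17T. Tags with no mismatch or indel made up 68.1% of miR-210-3p counts in Exo-AT replicate 2 (53.8 to 79.6) and none in the other Exo-AT library, and 96.7% in Exo-ADSCs (94.7 to 97.9).

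By centred log2 CPM over the 3 libraries (TMM, edgeR's default prior count of 2), the 5 miRNAs most like miR-210-3p were miR-466b-5p (Euclidean distance 0.30), miR-6328-5p (0.41), miR-146b-3p (0.45), miR-3473-3p (0.63) and miR-99b-5p (0.75). The first 3 had 0 counts in both Exo-AT libraries, against 48, 57 and 32 in Exo-ADSCs, so their closeness depends on the prior count. miR-3473-3p had 0 and 5 counts in Exo-AT, against 52 in Exo-ADSCs. miR-99b-5p, an abundant miRNA, had 292 and 3371 counts in Exo-AT, against 21742 in Exo-ADSCs, a log2 fold change of -3.88 (SE 0.25). All 5 shared the short reads of miR-210-3p in Exo-ADSCs. Reads of 20 to 25 nt made up 0% of each of the first 3 there, 5.77% of miR-3473-3p and 2.62% of miR-99b-5p, beside 11.5% of miR-210-3p.

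miRNAs that low oxygen raises in cultured cells were called in both directions. A list of 21 hairpins, miR-210 included and mostly those found raised under low oxygen in human cancer cells, gave 25 tested strands of 20 hairpins: 4 were higher in Exo-AT, 7 were lower and 14 were not called, beside 19.1% called in each direction over all miRNAs. Without miR-210-3p itself, 6 of 24 were lower and the median was 0.16. The median log2 fold change of the whole list was 0.14, also with its 4 strands at 0 counts in a group set at their bound, against 0.37 over all 183. Only 2 of the list's strands had a lower log2 fold change than miR-210-3p, miR-24-3p and miR-21-3p. Scaling by total counts gave 5 higher and 4 lower in the list, beside 25.1% and 10.4% of all miRNAs. All assigned counts gave 15 higher and 3 lower of 24 tested, beside 63.3% and 2.96% of all miRNAs.

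miR-24-3p, which is made from the same clusters as miR-23 and miR-27, came closest. It had 10 and 68 counts in Exo-AT, against 1250 in Exo-ADSCs (-5.13, SE 0.36), and both Exo-AT libraries were lower. Its cluster partners differed from it: miR-27b-3p was higher in Exo-AT with 45 and 352 counts, against 46 in Exo-ADSCs (2.02, SE 0.51), and miR-23a-3p (0.31), miR-23b-3p (0.18) and miR-27a-3p (-0.23) did not pass the test. miR-21-3p had 0 and 0 counts in Exo-AT, against 84 in Exo-ADSCs. miR-21-5p, the abundant strand of the same hairpin, known for its part in growth and fibrosis, had 297 and 3213 counts, against 2843 (-0.97, SE 0.27), and with total-count scaling it was at -0.07 and not called.

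The remaining members called lower were miR-192-5p, which p53 induces in human cells, with 7 and 52 counts in Exo-AT against 171 in Exo-ADSCs (-2.68, SE 0.57), and the near-identical miR-103-3p (-2.35, SE 0.59) and miR-107-3p (-2.18, SE 0.81), whose reads cannot be fully told apart. With total-count scaling neither miR-103-3p (-1.52) nor miR-107-3p (-1.39) was called. The members called higher, beside miR-27b-3p, were miR-125b-5p with 46 and 446 counts in Exo-AT against 30 in Exo-ADSCs (2.82, SE 0.52), miR-26a-5p with 83 and 1297 counts against 88 (2.50, SE 0.39) and miR-181a-5p with 152 and 1790 counts against 422 (0.88, SE 0.32). With DESeq2 size factors miR-27b-3p (1.77) and miR-181a-5p (0.62) were not called. miR-155-5p, an inflammation associated miRNA, had 2 and 27 counts in Exo-AT against 0 in Exo-ADSCs, with no call. In the fit of 20 to 25 nt tags, where 45.4% of all miRNAs were called, the list gained 2 calls and lost 3. miR-155-5p was called higher (adjusted p = 0.0242, edgeR) and miR-30b-5p lower (adjusted p = 0.0397, edgeR). miR-103-3p, miR-27b-3p (adjusted p = 0.0801, edgeR) and miR-181a-5p (adjusted p = 0.0633, edgeR) were not called, and miR-107-3p was not tested.

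Read length differed within the list. In Exo-ADSCs, reads of 20 to 25 nt made up 11.5% of miR-210-3p, but 98.2% of miR-24-3p, 96.8% of miR-21-5p, 92.9% of miR-21-3p, and all reads of miR-192-5p and miR-26a-5p. Of the 17 list strands that reached 20 counts in that library, 7 had under 50% of their counts at that size. Beside miR-210-3p these were miR-107-3p (2.86%), miR-103-3p (5.56%), miR-23a-3p (20%), miR-125b-5p (26.7%), miR-181b-5p (43.8%) and miR-23b-3p, which had none. With only the tags of 20 to 25 nt, miR-24-3p was at -6.17, miR-192-5p at -3.51 and miR-21-5p at -1.98, each further from 0 than with all tags, whereas miR-103-3p (-0.65, adjusted p = 0.536, edgeR), miR-26a-5p (1.59), miR-27b-3p (1.60) and miR-210-3p (-2.68) were nearer to 0. Of the 10 strands called with all tags and tested in both fits, 5 were nearer to 0, miR-210-3p included.

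**Figure D5:**
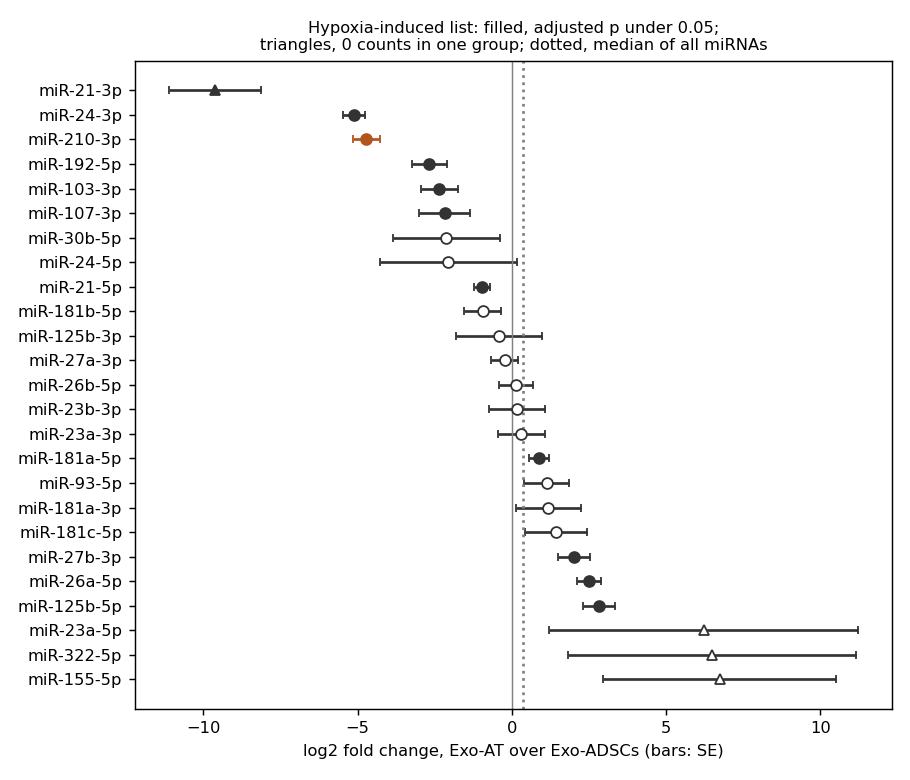
log2 fold change, Exo-AT over Exo-ADSCs, of the 25 tested strands of the hypoxia list, with bars of 1 SE. Filled points passed the test, triangles had 0 counts in all libraries of 1 group (their position depends on the prior count), the dotted line is the median of all miRNAs (0.37) and miR-210-3p is in brown, with 2 strands lower than it.

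Of miRNAs reported to target the HIF1A messenger RNA, 6 hairpins were listed and 5 strands tested. None was called by edgeR, which called 38.3% of all miRNAs, with 0 at an unadjusted p under 0.05, where all miRNAs had 83 of 183. DESeq2 and limma also called 0, beside 23.5% and 10.9% of all miRNAs. With total-count scaling 1 was higher, miR-199a-5p, beside 25.1% of all miRNAs. miR-199a-3p had 32 and 363 counts in Exo-AT, against 215 in Exo-ADSCs (-0.43, SE 0.41), and miR-199a-5p had 22 and 273, against 63 (0.88, SE 0.54). miR-17-5p had 0 and 12 counts in Exo-AT, against 24 in Exo-ADSCs, miR-20a-5p 0 and 20, against 2, and miR-138-5p 0 and 18, against 0.

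The authors' deposited table, which gives normalized reads for all 4 libraries, lists 45 miRNAs as raised in Exo-AT. miR-210 has 0 entries in the authors' deposited table, so Exo-ADSCs replicate 1, which has no tag counts here, gave no value for it. Of its 45 entries, 8 belong to the hypoxia list, beside 25 of the 183 strands tested from the tag counts. In the authors' deposited table miR-27b-3p stands at 1903 and 561 normalized reads in Exo-AT, against 116 and 65 in Exo-ADSCs, and the Exo-AT values lie above both Exo-ADSCs values. Since only miRNAs listed as raised in Exo-AT are given there, this order was largely set by that choice and adds no support. miR-21-5p stands there at 17472 and 5551 in Exo-AT, against 12212 and 3956 in Exo-ADSCs in the authors' deposited table, so its groups overlap. For many miRNAs the authors' values for Exo-AT replicate 1 followed the tag counts of Exo-AT replicate 2 in near-constant proportion. Examples were miR-486 (122398 beside 22521 counts), miR-21-5p (17472 beside 3213) and miR-25-3p (8037 beside 1479). Others, such as miR-99a-5p (1996 beside 5890), did not. For miR-99a-5p the authors' value for Exo-AT replicate 2, 32034, stood to those 5890 counts in about the proportion of the examples. The Exo-AT replicate numbers may thus stand for different libraries in the authors' table and the tag files, which was not tested.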

How the data were processed

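The deposited tag files give whole-number counts for each read sequence and the hairpin it was aligned to, per the file headers. Per the labels' protocols, inserts of about 15 to 35 nt were read for 36 cycles. Novoalign 2.07.11 and the rn6 build are named, per the submitters' processing notes. Adaptor trimming and the release of the miRNA reference were not stated there. No tag in them has under 2 reads. Where a tag is listed on several hairpins its reads are shared out in whole numbers, as the values show. The authors' table holds a value headed normalized reads, used here as a score since its factor is not stated. The file of Exo-ADSCs replicate 1 holds no miRNA names and was not used. Depth per sample is given in the report.

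miR-210 tags were summed per library by strand, start, length and change. Positions in the files run 5 bases ahead of the hairpin and were shifted back (checked on 3564 tags with no mismatch, of which 100% had that offset), and ends were corrected for inserted or deleted bases. Tags of all named hairpins were summed to mature strands by the tag's midpoint, copies merged, and tested with edgeR 4.0.16 (quasi-likelihood, two-sided, TMM, R 4.3.3) after edgeR's default filter (minimum count 10, minimum total 15), which left 183. Benjamini-Hochberg adjusted p-values were called at 0.05. SE is the log2 fold change over the square root of F. With 1 Exo-ADSCs library, the spread comes from both Exo-AT libraries, and the lone library is assumed to vary like them. edgeR pools that spread over the miRNAs tested, and its p-values depend on this pooling. The fit was tested on simulated data. DESeq2 1.42.0 and limma 3.58.1 were alternatives. Shares have Wilson and levels exact Poisson 95% intervals, and ratios of counts have exact (Clopper-Pearson) intervals. The members and lists were chosen with earlier results of these data known. Named miRNAs were both strands of miR-210, list members called or among the 4 most abundant, the 5 nearest in pattern and the neighbours by count. Those named for read length or for an untemplated A, and list members named without a call, were chosen after their values were seen.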

Additional observations from a re-analysis of the deposited data

How the results depend on the processing

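The log2 fold change of miR-210-3p was below 0 under 14 of 16 alternatives. A test was possible under 14, of which 9 called it lower, with adjusted p from 1.04e-21 to 0.511 over all alternatives. It was -4.79 (adjusted p = 0.511, edgeR) with predicted hairpins in the fit, a fit that made 0 calls among 401 (25 had an unadjusted p under 0.05), and -4.73 (adjusted p = 0.0543) with limma. With tags of 20 to 25 nt it was -1.92 on total counts and 1.34 on all assigned counts. Those 2 settings, all assigned counts as library size and the alternatives for the HIF1A list were chosen after seeing the data. With the most common tag alone it was 6.10 (adjusted p = 0.115, edgeR), since that choice, by summed share, picks the 23 nt form (3 and 12 counts in Exo-AT, 0 in Exo-ADSCs). Leaving out each Exo-AT library gave -5.02 to -4.64, with no test. The number of miRNAs called, 70, was 46 with upper-quartile factors, 43 with DESeq2, 20 with limma and 112 (107 higher, 5 lower) with all assigned counts. The hypoxia list's 11 calls were 7 with DESeq2, 1 with limma, 0 with predicted hairpins and 18 with all assigned counts. The HIF1A list had 1 call with total counts and 2 with all assigned counts. Apart from the most common tag, the cause of these shifts was not tested. The share of miR-210-3p at 21 to 23 nt in Exo-AT replicate 2, 25.5%, was 83.0% for 20 to 24 nt and 0% without mismatched tags. In Exo-ADSCs it was 10.2%. No paired analysis was possible because the libraries with tag counts share only replicate number 2. Counts after leaving out a library were not run, since no residual degrees of freedom remain. Depth limits Exo-AT replicate 1, where 3 counts are 328 CPM.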
